A study of Arabidopsis thaliana with 14 samples.

Results

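In total, 32 of the 5861 circular RNAs (circRNAs) identified in Arabidopsis thaliana were listed under the chloroplast gene rbcL (ATCG00490). The members are all list entries that carry this gene identifier. rbcL was selected on the number of circRNAs listed under it, so that number is a description and was not tested. They made up 3.52% of the 909 circRNAs of chloroplast DNA and 0.546% of all circRNAs. All material came from wild-type Columbia (Col-0) plants, and each of 14 libraries held RNA depleted of ribosomal RNA and treated with RNase R, an exonuclease that degrades linear RNA. Of the 13 separate samples, 4 were whole plants taken at stages 1.14, 3.90, 6.50 and 8.00, 5 were organs (roots, stems, flowers, leaves and siliques) and 4 were plants without stress treatments or under drought (mannitol), salt (NaCl) or heat stress. The mixed sample pooled RNA of plants from 7 growth stages. Each condition had 1 library, and the lists used here hold 1 value per circRNA and no column for a separate sample, so conditions were not compared.

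RuBisCO is the enzyme that fixes carbon dioxide in the Calvin cycle, and rbcL encodes its large subunit, which carries the active site. The gene lies on chloroplast DNA, whereas the small subunits are encoded in the nucleus, and its transcript is among the most abundant messenger RNAs of a green leaf. rbcL has no intron, and the nuclear spliceosome does not act in the chloroplast. Chloroplast DNA is transcribed on both strands, so antisense RNA of its genes is known. A circRNA is recognised from a back-spliced read, in which the end of a stretch of RNA is joined to its own start. The caller used for these lists, find_circ, accepts such a junction only where the genome has AG just before the acceptor and GT just after the donor, as at the edges of a spliceosomal intron, and the strand given to a circRNA is the one on which these letters stand.

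On the TAIR10 build, rbcL occupies chloroplast DNA (Pt) from 54958 to 56397 on the plus strand. The single coding segment has 1440 bp, or 480 codons with the stop codon, and a GC content of 44.0%. The gene atpB, for the beta subunit of ATP synthase, ends at 54156 on its left and lies on the minus strand (52660 to 54156). The gene accD, for a subunit of acetyl-CoA carboxylase, begins at 57075 on its right. Positions in the gene are counted below from the first base of the start codon.

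The junction sequences of 6 members are shown first, because they carry the highest listed values or show how ends were reused. Each is 60 bases from TAIR10 joined by the listed coordinates and read 5′ to 3′ on the listed strand, with the bases that run up to the donor end in lower case and the bases that follow from the acceptor end in capitals.
Ath_circ_FC4679, Pt:54972-55275, minus strand: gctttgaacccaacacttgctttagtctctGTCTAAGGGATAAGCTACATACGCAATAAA
Ath_circ_FC4900, Pt:56213-56393, plus strand: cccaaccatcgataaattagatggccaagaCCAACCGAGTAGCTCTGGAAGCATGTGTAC
Ath_circ_FC5005, Pt:56096-56311, plus strand: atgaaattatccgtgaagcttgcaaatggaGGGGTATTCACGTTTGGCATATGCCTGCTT
Ath_circ_FC0105, Pt:56072-56226, minus strand: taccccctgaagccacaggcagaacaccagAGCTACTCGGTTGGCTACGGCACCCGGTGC
Ath_circ_FC5535, Pt:56072-56323, minus strand: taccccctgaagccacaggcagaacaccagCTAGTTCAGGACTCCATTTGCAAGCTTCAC
Ath_circ_FC5118, Pt:56072-56360, minus strand: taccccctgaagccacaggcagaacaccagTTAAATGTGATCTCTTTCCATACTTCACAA
The last 3 share their lower-case letters, since all 3 start at 56072, and differ only in the letters in capitals.

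The rbcL circRNAs were short pieces of the coding sequence on both strands, lying mostly near its start and towards its end. Both ends fell inside the gene for 26 of the 32 members, whose spans ran from 153 to 1362 bp. Of these 26, 23 spanned under 500 bp and 17 under 300 bp. Over all 32 the median span was 232 bp, with quartiles of 172 and 393 bp, beside a median of 244 bp over the 502 circRNAs of 44 other chloroplast genes. The 3 shortest were Ath_circ_FC4974 (136 bp), Ath_circ_FC4701 (153 bp) and Ath_circ_FC0105 (155 bp), and the 3 longest, Ath_circ_FC5534 (76375 bp), Ath_circ_FC5849 (49913 bp) and Ath_circ_FC5198 (8114 bp), ran far beyond the gene. Inside the gene 3 circRNAs spanned more than 500 bp, namely Ath_circ_FC4681 (1362 bp), Ath_circ_FC4684 (1264 bp) and Ath_circ_FC4691 (990 bp), and all 3 were on the gene's strand.

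**Figure D1:**
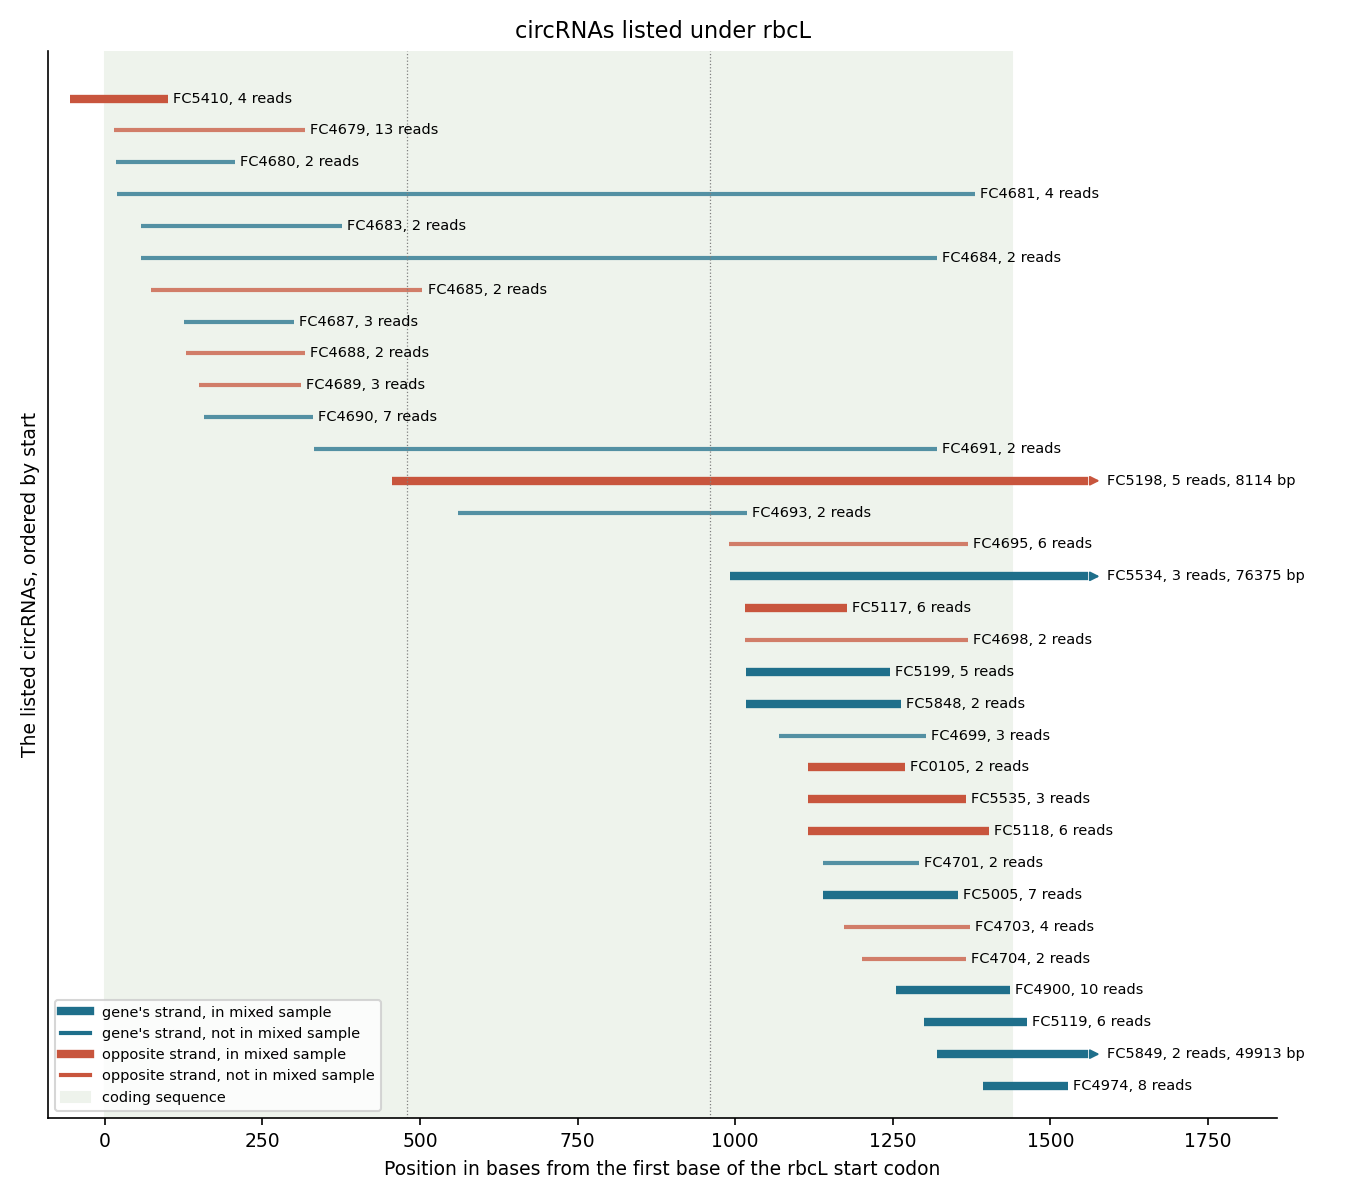
Map of the 32 circRNAs listed under rbcL, each drawn as a line from its first to its last base, with the position from the start codon in bases on the x axis and the circRNAs ordered by start on the y axis. Blue lines are on the gene's strand and red lines on the opposite strand, thick lines are in the mixed sample, arrows mark 3 circRNAs that end beyond the plot, and dotted lines divide the 1440 bp into 3 equal parts; the members gather in a first group of 9 and a last group of 16.

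Members under 500 bp fell into 2 groups that left 56 bp of the gene, from position 505 to 560, under none of them. The first group had 9 members between 54901 and 55461, of which 5 were on the opposite strand and 1 was in the mixed sample, with a listed value sum of 38 reads. The last group had 16 members between 55947 and 56485, of which 8 were on the opposite strand and 10 were in the mixed sample, with a sum of 74 reads. Ath_circ_FC4693 (55518 to 55976, 2 reads) lay alone between them. Counting the 29 members of at most 2000 bp, the number over a base averaged 6.37 in the first 480 bases, 3.88 in the middle 480 and 9.61 in the last 480. It was highest, at 14 or 15 members, over the 131 bases from position 1139 to 1269 (GC content 51.9%), which code for a stretch of the large subunit towards its carboxyl end and are shown because so many of the circRNAs hold them.
Pt:56096-56226, plus strand: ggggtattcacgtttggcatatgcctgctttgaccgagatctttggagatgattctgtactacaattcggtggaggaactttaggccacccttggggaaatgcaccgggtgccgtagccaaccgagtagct

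Since any end must have AG or GT beside it, the use of these sites was counted along the gene. The 3 equal parts of the gene held 131, 107 and 118 candidate sites over both strands, sites with AG or GT in the right place for an acceptor or a donor. Members used 18 of them (13.7%) in the first part, 2 (1.87%) in the middle part and 28 (23.7%) in the last part. The GC content of the parts was 44.6%, 40.4% and 46.9%. The middle part was thus not poor in candidate sites but in used ones.

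Parts of rbcL have copies elsewhere in the genome. A stretch of 573 bp, from position 543 to 1115, has a near-identical copy on chromosome 2 (3468169 to 3468736, 96.9% identity) and another in mitochondrial DNA (97.2% identity, in the reference used here). Words of 20 bases that also occur outside the gene made up 8.54% of those starting in the first part, 69.4% in the middle part and 24.9% in the last part. Reads from near-identical copies can stay unplaced or be split between places, so ends in this stretch are uncertain. The stretch holds 11 starts and 1 end of 11 members, 1 of them in the middle part and 11 from position 990 to 1115 in the last part, among them the starts 55972, 55974 and 56072 described below. Among candidate sites, those whose first 20 bases inside the circle occur once in the genome were used in 17 of 119 cases in the first part (14.3%), in 0 of 35 in the middle part and in 23 of 87 in the last part (26.4%). A count of 0 of 35 allows a share of up to 8.57%. Both used ends of the middle part lay among the 72 sites there with a word found elsewhere. The part of these copies in the pattern was not tested beyond these counts. No circRNA was listed over any nuclear copy of rbcL sequence.

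**Figure D2:**
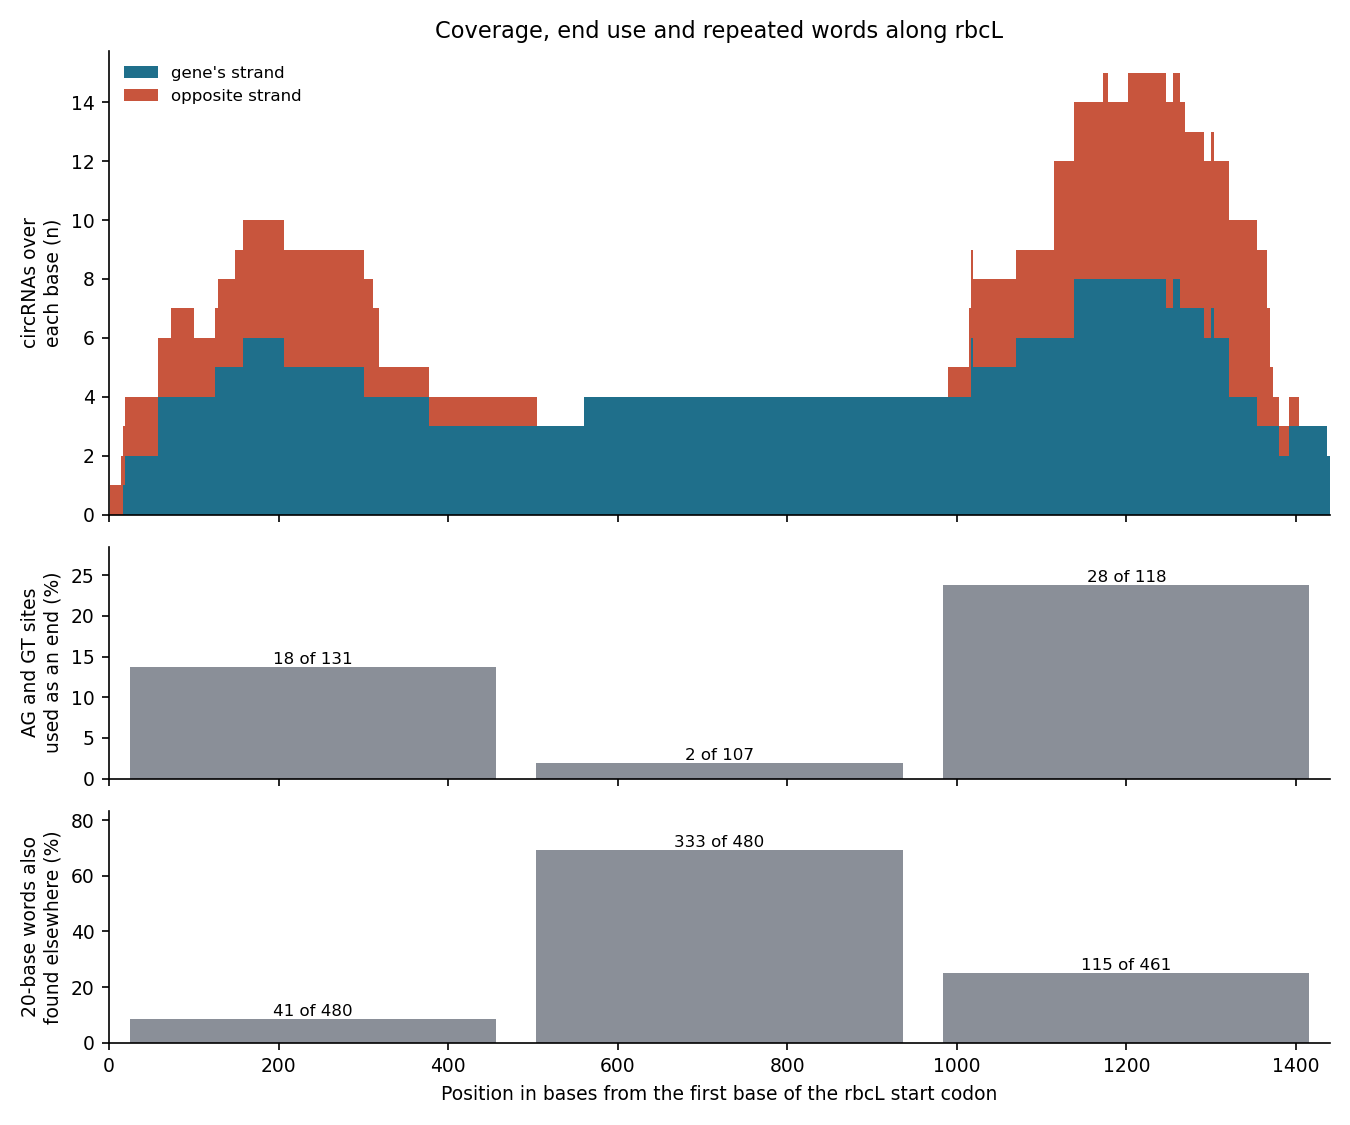
Along rbcL, with the position from the start codon in bases on the x axis, the upper panel gives the number of members of at most 2000 bp over each base by strand, the middle panel the share of AG and GT sites used as an end in each part (18 of 131, 2 of 107 and 28 of 118), and the lower panel the share of 20-base words also found elsewhere in the genome (8.54%, 69.4% and 24.9%). The middle part has the lowest use and the highest share of repeated words.

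Listed junction reads were few for every rbcL circRNA. The listed value ran from 2, the minimum of the list, to 13, with a median of 3 and a sum of 132 reads, 2.05% of the 6426 reads listed over chloroplast DNA. The median was 4 over all chloroplast circRNAs and 5 over those of the other chloroplast genes, where the highest reached 251. At 2 reads stood 13 of the 32 members (40.6%), beside 19.5% of the circRNAs of the other chloroplast genes. No replicate error can be given for such a value, and circRNAs that differ by a few reads cannot be ordered.

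Ath_circ_FC4679 was highest at 13 reads, 9.85% of the gene's sum, and it lay on the opposite strand and outside the mixed sample. Ath_circ_FC4900 followed with 10 reads and Ath_circ_FC4974 with 8, then Ath_circ_FC4690 and Ath_circ_FC5005 with 7 each. Ath_circ_FC4695, Ath_circ_FC5117, Ath_circ_FC5118 and Ath_circ_FC5119 had 6 reads each, so that 9 members exceeded 5 reads. The 6 highest values summed to 51 reads, 38.6% of the gene's total, so no single circRNA dominated. Ath_circ_FC4900 runs from codon 419 to the last codon before the stop codon and leaves the stop codon out of the circle. Ath_circ_FC4974 begins inside the last codons and ends 88 bp past the gene, so most of it is noncoding sequence behind rbcL.

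**Figure D3:**
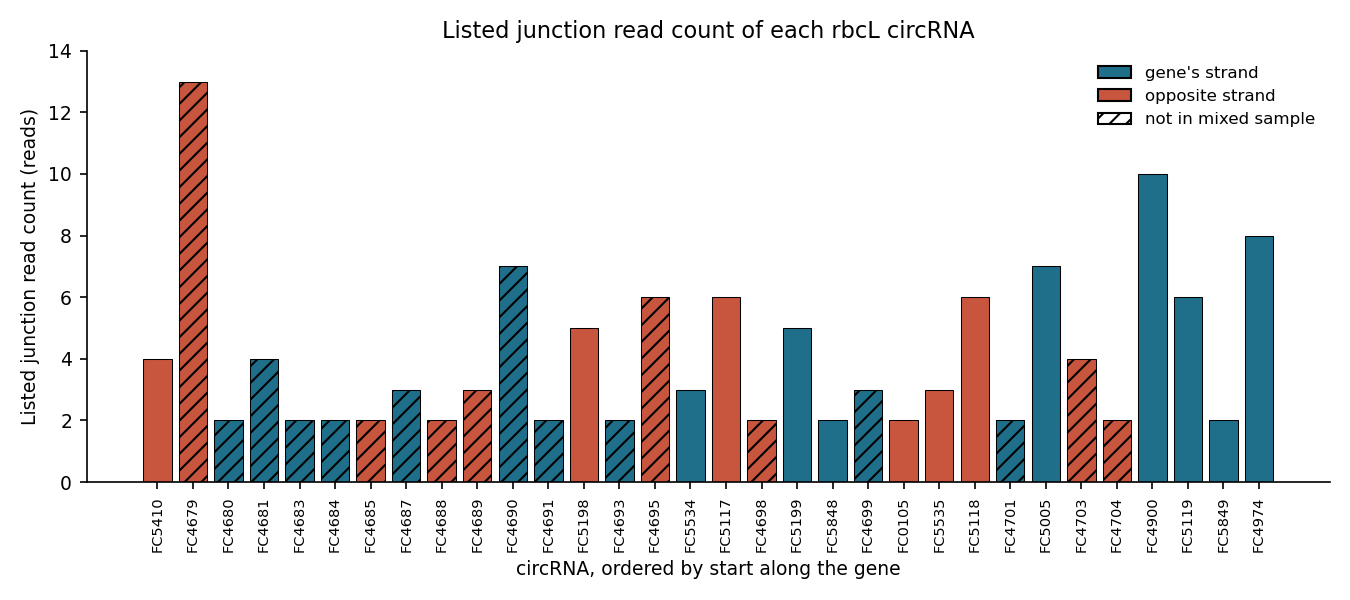
Listed junction read count of each of the 32 members in reads (y axis), ordered by start along the gene (x axis). Blue bars are on the gene's strand, red bars on the opposite strand and hatched bars outside the mixed sample; a bar is 1 listed value with no replicate, and the tallest, Ath_circ_FC4679, has 13 reads.

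The mixed sample held 14 of the 32 rbcL circRNAs. Their listed values were the mixed sample's own counts, from 2 to 10 with a median of 5 and a sum of 69, which was 3.26% (2.58 to 4.10%) of the 2118 chloroplast back-spliced reads of that library and 0.768% of all 8987. The highest there were Ath_circ_FC4900 (10 reads), Ath_circ_FC4974 (8) and Ath_circ_FC5005 (7). The 18 members outside the mixed sample had a median of 2 reads, from 2 to 13, and a sum of 63. The ranges overlapped, and the mixed and separate libraries differed in sequencing platform, so their levels were not tested against each other.

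On the strand opposite to rbcL lay 14 of the 32 members (43.8%, 28.2 to 60.7%), and these held 60 of the 132 reads (45.5%). Genes of the chloroplast other than rbcL had 257 of 502 circRNAs on the opposite strand (51.2%, 46.8 to 55.5%), a difference that did not pass Fisher's exact test (two-sided, p = 0.468, adjusted p = 0.624 over 4 tests). psbA makes up 330 of the 502, and without it the others stood at 62 of 172 (36.0%), below rbcL, again without passing (Fisher's exact test, p = 0.430). Exonic circRNAs of nuclear genes were on the opposite strand in 601 of 4405 cases (13.6%, 12.7 to 14.7%), and from these rbcL differed by 30.1 percentage points (Fisher's exact test, p = 3.53e-05, adjusted p = 0.000141). In the mixed sample alone, the difference from nuclear circRNAs was 42.9% (n = 14) against 23.2%, which did not pass (Fisher's exact test, p = 0.108). The comparison with nuclear circRNAs was added after the data were seen. Because the caller sets strand by AG and GT, and rbcL has no intron, this test cannot tell antisense RNA from the caller's choice. The 3 parts of rbcL held 32, 27 and 33 candidate acceptors on its strand and 40, 26 and 31 on the opposite. Candidate donors numbered 27, 26 and 31 on its strand and 32, 28 and 23 on the opposite. Overlapping circRNAs of a gene are not independent, so the p-values here are smaller than independent cases would give.

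No difference in strand was detected between rbcL circRNAs in the mixed sample and outside it, with few members in each set. Of the 14 in the mixed sample 6 were opposite (42.9%, 21.4 to 67.4%), and of the 18 others 8 (44.4%, 24.6 to 66.3%; Fisher's exact test, two-sided, p = 1, adjusted p = 1), and the wide intervals leave room for differences in either direction. Among nuclear exonic circRNAs the opposite share was 23.2% in the mixed sample (212 of 913) and 11.1% outside it (389 of 3492). That nuclear difference was not tested. For rbcL, both strands were found in the first group of members and in the last. The highest listed value on the opposite strand was the 13 reads of Ath_circ_FC4679, and the highest on the gene's strand was the 10 reads of Ath_circ_FC4900.

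The share of circRNAs in the mixed sample depended on how circRNAs were given to genes, since those that cross a gene's border were listed under rbcL in the mixed list alone (below). With both ends inside the gene, 8 of 26 rbcL circRNAs (30.8%) and 62 of 405 of the other chloroplast genes (15.3%) were in the mixed sample, and the difference did not pass Fisher's exact test (two-sided, p = 0.0519). As listed, the shares were 43.8% and 159 of 502 (31.7%; Fisher's exact test, p = 0.174, adjusted p = 0.348). Among circRNAs with at least 3 reads they were 57.9% and 33.7% (Fisher's exact test, unadjusted p = 0.0458), and with at least 5 reads 72.7% and 30.4% (unadjusted p = 0.00595, Fisher's exact test). Without psbA the others stood at 66.9%, above rbcL (Fisher's exact test, unadjusted p = 0.0165).

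Single genes differed in both shares. For psbA, which encodes the D1 protein of photosystem II, 195 of 330 circRNAs were opposite (59.1%) and 44 were in the mixed sample (13.3%). For psbC, which encodes the CP43 antenna protein of photosystem II, the numbers were 8 (30.8%) and 6 (23.1%) of 26. For rpl33, a ribosomal protein gene, 4 of 30 were opposite (13.3%) and all 30 were in the mixed sample, but only 1 of the 30 had both ends inside the gene, so its mixed share follows the listing and is no comparison with rbcL.

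**Figure D4:**
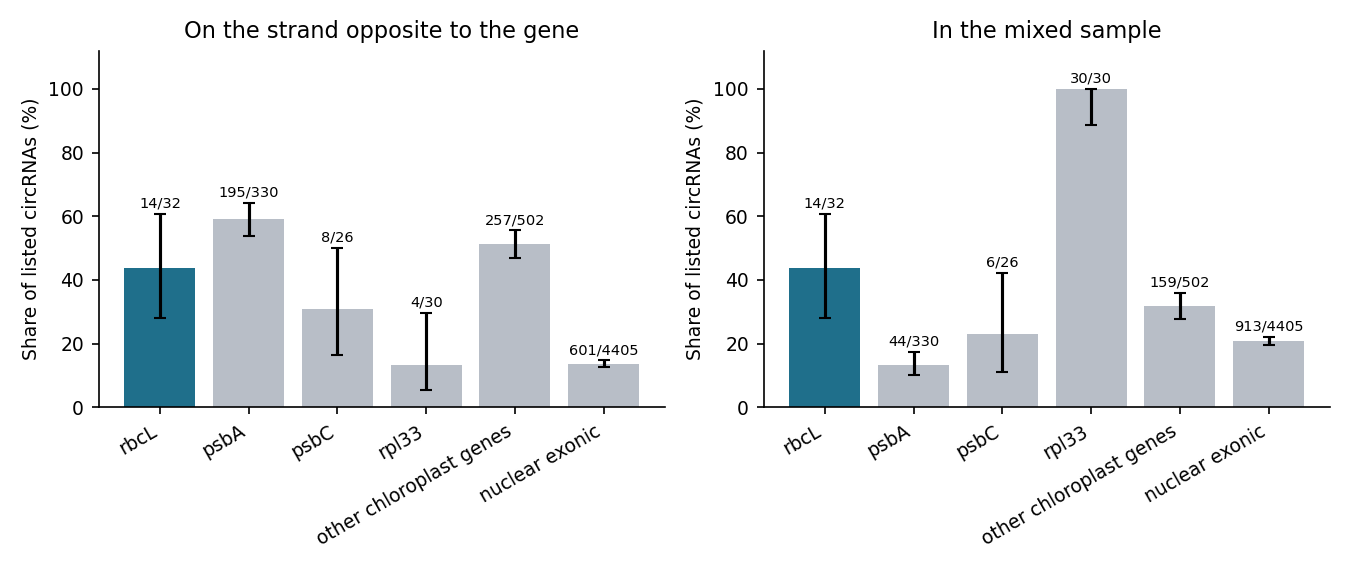
Share of listed circRNAs in percent (y axis) that lay on the strand opposite to their gene (left) and that were in the mixed sample (right), for rbcL, the 3 other chloroplast genes with the most circRNAs, all other chloroplast genes together and exonic circRNAs of nuclear genes. Bars are shares with their counts above, and lines are 95% Wilson intervals, which cover counting error only; rbcL is at 43.8% in both panels.

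The number of rbcL circRNAs was close to that of psbC for the length of the gene. With both ends inside the gene, rbcL had 26 circRNAs (18.1 per kb), psbC 25 (17.6 per kb), psbA 310 (292 per kb) and rpl33 1 (4.98 per kb). The neighbours atpB and accD had 0 each, and 0 lay wholly within the 801 bp between atpB and rbcL or the 677 bp between rbcL and accD. These are counts in pooled lists, and the amount of RNA from each gene was not measured here.

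Ends recurred among the rbcL circRNAs. The 64 ends of the 32 members fell on 26 distinct starts and 28 distinct ends, and 16 members shared an exact end with at least 1 other. More than 1 member used 5 of the starts, 55015 (Ath_circ_FC4683 and Ath_circ_FC4684), 55972 (Ath_circ_FC5117 and Ath_circ_FC4698), 55974 (Ath_circ_FC5199 and Ath_circ_FC5848), 56096 (Ath_circ_FC4701 and Ath_circ_FC5005) and 56072, with the 3 members printed above. The 4 recurring ends were 55275 (Ath_circ_FC4679 and Ath_circ_FC4688), 56278 (Ath_circ_FC4684 and Ath_circ_FC4691), 56323 (Ath_circ_FC5535 and Ath_circ_FC4704) and 56326 (Ath_circ_FC4695 and Ath_circ_FC4698). Of these 9 positions, 3 (55972, 56096 and 56323) served both a member of the mixed sample and a member outside it, so the same break was called in libraries prepared apart.

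The position 56072 was a donor on the minus strand for 2, 3 and 6 reads, joined to acceptors at 56226, 56323 and 56360. The position 56096, only a short distance away, was an acceptor on the plus strand, joined to donors at 56248 (2 reads) and 56311 (7 reads). The sequence around both breaks is shown, read 5′ to 3′ on the strand of the circRNA, with the flanking GT or AG, which lies outside the circle, in capitals.
56072 donor, Pt:56052-56091, minus strand: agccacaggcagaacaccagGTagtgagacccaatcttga
56096 acceptor, Pt:56076-56115, plus strand: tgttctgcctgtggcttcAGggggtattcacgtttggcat
At 55288 and 55289 the same break was an end and a start, with Ath_circ_FC4690 (7 reads) ending where Ath_circ_FC4691 (2 reads) began. This break has GT after it and AG before it, as its window shows with the AG in capitals.
55289 acceptor, Pt:55269-55308, plus strand: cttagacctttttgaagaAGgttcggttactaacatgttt

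At 3 places, starts on opposite strands lay 2 bases apart. Ath_circ_FC4679 started at 54972 on the minus strand and Ath_circ_FC4680 at 54974 on the plus strand, Ath_circ_FC4695 at 55947 and Ath_circ_FC5534 at 55949, and the members at 55972 lay on the minus and those at 55974 on the plus strand. Each pair sat on the letters ACAG, in which AC is the GT of a minus-strand donor and AG precedes a plus-strand acceptor. Since the caller requires these letters, any pair so spaced, with the minus-strand start first, must sit on ACAG. The motif itself is therefore no result. The gene's plus strand holds 7 copies of ACAG, of which 3 were used by starts on both strands, 0 by a start on 1 strand only and 4 by none. These 3 sites account for the starts of 8 members, and the latter pairs, from 55947 on, lie in the stretch copied elsewhere in the genome. The letters were chosen after the positions were seen, and the overlap of both signals in ACAG is shown in capitals below, on the plus strand.
54972 and 54974, Pt:54952-54991: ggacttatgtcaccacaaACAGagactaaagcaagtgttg
55947 and 55949, Pt:55927-55966: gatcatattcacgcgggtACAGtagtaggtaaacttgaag
55972 and 55974, Pt:55952-55991: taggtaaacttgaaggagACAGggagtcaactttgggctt

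Every member had AG before its acceptor and GT after its donor on its listed strand (32 of 32, and 909 of 909 over chloroplast DNA), and 0 had them on both strands. Since find_circ requires these letters, this checks the coordinates and the strand and is not a result. How exactly an end is placed depends on bases that both ends share, because the break can be shifted along them without changing the junction. At most 2 bases were shared by 24 of the 32 members (75%), beside 85.7% over all chloroplast circRNAs, and the median was 1 in both. The longest shared runs were the 9 bases CGGGTACAG of Ath_circ_FC5534 and the 8 bases of Ath_circ_FC4690, whose start and end lie behind the same letters TGAAGAAG. The 8 letters occur 13 times on chloroplast DNA and the 9 letters 3 times. Shared runs of 8 or more occurred in 2 of 32 members (6.25%) and in 13 of the 909 chloroplast circRNAs (1.43%). A search of the 32 junction sequences found 0 with 3 or fewer mismatches to contiguous genome sequence, and the nearest had 14 mismatches. The authors took junctions from chimeric reads, so this outcome was largely fixed and is not a result either.

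The reading frame continued around part of the circles. Of the 14 members inside the gene and on its strand, 7 had a span that is a multiple of 3. Over all 26 inside members, which include these 14, 10 had such a span (38.5%). About 1 in 3 spans is a multiple of 3 whatever the sequence, and the share was not tested. In all 7 the frame of rbcL ran around the circle with no stop codon. That outcome was largely fixed, because each is a piece of the reading frame without its stop codon. At most the codon made at the junction was new. They ranged from Ath_circ_FC4701 (51 codons, 2 reads) and Ath_circ_FC4690 (58 codons, 7 reads) to Ath_circ_FC4681 (454 codons, 4 reads), and Ath_circ_FC5005 (72 codons, 7 reads) was the one in the mixed sample. None of the 7 holds the start codon, and translation was not measured. The start codon lay in 1 member, Ath_circ_FC5410, which is on the opposite strand, and the stop codon in 5.

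Outside the gene reached 6 members, and all 6 were in the mixed sample. Ath_circ_FC5410 began 57 bp before the start codon, Ath_circ_FC5119 ended 23 bp after the stop codon and Ath_circ_FC4974 88 bp after it. Ath_circ_FC5198 ended at 63525 in no annotated gene. Ath_circ_FC5849 (2 reads) and Ath_circ_FC5534 (3 reads) joined rbcL to a copy of the 23S ribosomal RNA gene, at 106190 in rrn23S and at 132323 in ArthCr089, which lies in the other copy of the inverted repeat of chloroplast DNA. The position 132323 corresponds to 106326 in the first copy, so both breaks fell near each other in the same ribosomal gene. Both members were called on the plus strand and the copies are inverted, so they read this gene in opposite directions. Sequence within the repeat does not tell the copies apart, but a back-splice call needs both ends on the same strand.

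Whether a circRNA with 1 end in the gene was listed under rbcL depended on the list. Of 7 such circRNAs in the mixed sample 6 were listed under rbcL, whereas all 20 outside it were listed as intergenic. Just outside the rule thus stood 21 circRNAs with 1 end in rbcL, with 2 to 5 reads each and a sum of 50, against 2 to 8 reads for the 6 members that cross its border. Of the 21, 3 spanned under 500 bp and the other 18 had spans of at least 7597 bp. Their other ends lay in psbA, psbC and petD (3 each), in psbK, psbT, rps14 and trnG (1 each) and in no gene for 8. Ath_circ_FC4682 and Ath_circ_FC4705 joined different places in rbcL to the same position, 77718. Ath_circ_FC4678 shared the start 54901 of Ath_circ_FC5410, and Ath_circ_FC4702 the start 56096. In all, 7 of the 54 positions used by members were also used on the same side by a circRNA not listed under rbcL. A further 65 circRNAs spanned the whole gene. With both ends in the gene, the share in the mixed sample was 8 of 26 (30.8%), against 43.8% for all members.

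The mixed sample's list also names microRNAs that the authors predicted to target each circRNA. MicroRNAs guide cleavage or repression of matching RNA in the nucleus and cytosol, and a predicted target is not a measured one. In the paper, only a small proportion of all circRNAs were potential microRNA targets. Whether the entries in this list rest on the same prediction as that proportion was not checked. How many of all mixed circRNAs had an entry was not counted here, so the counts below have no background share. The entries below therefore cannot be called particular to rbcL. Of the 11 mixed members of at most 2000 bp, 10 had at least 1 entry. ath-miR472-5p was listed for 7 of them, 3 on the plus and 4 on the minus strand, and every one of the 11 that covers the 40 bases common to these 7 was among them. The 3 longest members listed it as well, of which Ath_circ_FC5198 and Ath_circ_FC5534 cover these bases and Ath_circ_FC5849 does not. Those bases are shown as the stretch common to the 7. They begin at the start of Ath_circ_FC5005 (56096) and stop at the end of Ath_circ_FC5117 (56135). Their place thus follows from the members, and no microRNA site was located within them.
Pt:56096-56135, plus strand: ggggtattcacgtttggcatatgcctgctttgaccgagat
The entries for circRNAs of opposite strands over the same bases are given as deposited. ath-miR831-3p was listed for 3 members (Ath_circ_FC5118, Ath_circ_FC4900 and Ath_circ_FC5119), again on both strands, and Ath_circ_FC4974 listed ath-miR170-3p, ath-miR171a-3p and ath-miR5653. Ath_circ_FC5410 had none, and the 3 longest members listed 28, 199 and 246 microRNAs.

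Other genes of RuBisCO lie in the nucleus. Of 23 nuclear genes that build or regulate the enzyme or make its substrate, 7 had a listed circRNA. Together they had 17 circRNAs with a sum of 87 reads, and 6 of the 17 were in the mixed sample and 5 on the opposite strand. Over all nuclear protein-coding genes, 3216 of 27444 (11.7%) had a listed circRNA. Of the 4 small subunit genes, RBCS1A had 3 circRNAs and RBCS2B 4, with a sum of 12 reads each, and RBCS1B and RBCS3B had 0 listed under them. Another 3 circRNAs, listed as intergenic and outside the mixed sample, span from RBCS3B into RBCS2B or on to RBCS1B. They were listed with 2080 (Ath_circ_FC3603), 2755 (Ath_circ_FC3604) and 1689 reads (Ath_circ_FC3605). Each joins a small subunit gene to a different one, over 3532, 3582 and 6760 bp. How reads were placed between these genes was not tested, so their values are not compared with those of rbcL. RCA, the RuBisCO activase that frees blocked active sites, had 6 circRNAs with 31 reads, 3 of them opposite. Of 9 chaperonin genes in this list, CPN60A (8 reads), CPN60B (5 reads) and CPN20 (9 reads) had 1 circRNA each. The 6 assembly factor genes had 0, as had MRL1, which is needed for a stable rbcL transcript. PRK, the phosphoribulokinase that makes the substrate of RuBisCO, had 1 circRNA with 10 reads.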

How the data were processed

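Reads were filtered and aligned to TAIR10 by the authors (their notes name CASAVA 1.8 and TopHat2), who ran find_circ and kept junctions with 2 or more reads. For the mixed sample they deposited a count of back-spliced reads per circRNA. For all 14 samples together they deposited 1 score per circRNA, headed as a mean of junction read counts but always a whole number. This score was the mixed count for all 1217 circRNAs of the mixed sample, and how the separate samples entered it was not analysed here. Other deposited columns hold spans and predicted microRNAs; a depth-scaled value was not used. Total reads per library were not in the lists, which bounds the precision of every value.

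The list's start counts from 0, so 1 was added. Sequences and genes came from TAIR10.1 (RefSeq), whose chloroplast sequence is that of TAIR10, and 534 of 549 chloroplast circRNAs with a listed gene were matched to it. Shares carry Wilson 95% intervals, which cover counting error only, as PCR reads are not independent molecules. Shares were compared with Fisher's exact test, two-sided. Copies and junctions were searched with blastn 2.17.0. Python 3.11.15, numpy 2.4.6, pandas 2.3.3, scipy 1.17.1, Biopython 1.88 and matplotlib 3.10.9 were used, and calculations were tested on simulated data. The members named singly were the 6 highest, the 3 longest, the 3 shortest and those sharing an end, and others were named after their values were seen. The members and lists were chosen with earlier results of these data known.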

Additional observations from a re-analysis of the deposited data

How the results depend on the processing

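Of 39 alternatives, 25 kept the direction and side of the threshold or stayed close to the reported value. The number of rbcL circRNAs was 19 with at least 3 reads, 11 with at least 5, and 118 with any overlap of the gene. The median was 5 reads in the mixed sample, against 3 over all. The difference in opposite-strand share from other chloroplast genes was -7.45 percentage points. However, rbcL was 7.70 above them without psbA, 13.0 above psbC alone and 30.4 above rpl33 alone. Of these comparisons only that with rpl33 passed the threshold, before adjustment (Fisher's exact test, p = 0.0117). The mixed share, 12.1 points above the others, was 24.2 above with at least 3 reads, 42.3 with at least 5 and 30.4 against psbA alone, all past the threshold before adjustment, and it was -23.1 without psbA and -56.3 against rpl33 alone. The difference in opposite strand between members in and outside the mixed sample was -1.59 points and became 5.56 with both ends inside the gene. Against nuclear circRNAs the difference of 30.1 points fell to 19.6 in the mixed sample alone and no longer passed. The comparisons with single genes, with nuclear circRNAs and with both ends inside were chosen after seeing the data. The cause of these changes was not tested beyond the change of comparison itself. With 1 library per condition no replicate could be left out. No paired analysis was possible because no condition has replicates.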
